A study of Mus musculus with 9 samples.

Results

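The genes described here carry glucose into the cell, break it down to pyruvate and lactate, and hold pyruvate back from the mitochondria. They are the transporters Slc2a1 and Slc2a3, the hexokinases Hk1 and Hk2, the glycolytic enzymes Pfkp, Aldoa, Pgk1 and Pkm, the lactate dehydrogenase Ldha and the pyruvate dehydrogenase kinase Pdk1. They were chosen by name from a list of glucose genes and not by a threshold on any value, but with earlier results of these data known. They are 10 of the 55487 gene IDs in the deposited tables. The study sequenced poly(A) RNA in 9 libraries of naive CD4+ T cells, taken from the spleen, with wild-type C57BL6/J mice as the source. Of these, 3 came from mice given neutralizing antibodies against IL-1b for 10 consecutive days, 3 from mice given MCC950 for 10 consecutive days, and 3 from mice with no treatment. IL-1b is an inflammatory cytokine, and MCC950 is a small molecule that blocks the NLRP3 inflammasome, the complex through which many cells release mature IL-1b. Both agents were given to the whole animal, and the labels name no dose, vehicle or isotype antibody for the untreated mice, and neither the sex nor the way the cells were isolated. Whether a group's 3 libraries are 3 animals is not stated, and the p-values below then cover only the variation among these libraries, part or all of which could be technical.

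Glucose enters T cells mainly through GLUT1, the product of Slc2a1, and GLUT3, the product of Slc2a3, and hexokinase traps it by adding a phosphate. Phosphofructokinase, aldolase, phosphoglycerate kinase and pyruvate kinase then carry it to pyruvate, which lactate dehydrogenase turns into lactate or the pyruvate dehydrogenase complex feeds into the mitochondria, a step that PDK1 switches off by phosphorylating the complex. Naive T cells are resting cells that use little glucose and rely largely on mitochondrial oxidation, while activated T cells raise GLUT1 and glycolytic enzymes under the control of MYC, IRF4 and HIF-1.

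The libraries held 14775375 to 16676626 expected counts in the anti-IL-1b group, 16769960 to 18497827 in the MCC950 group and 17335367 to 21394797 in the untreated group, where an expected count is the number of reads that the authors' software assigned to a gene. All 12 listed markers of naive CD4+ T cells were expressed in all 9 libraries. Summed TPM of the 12 markers, among them Cd3e, Cd4, Ccr7 and Il7r, was 6512 to 6544 in anti-IL-1b libraries, 5938 to 6026 in MCC950 libraries and 6059 to 6144 in untreated libraries. By the test described below, 3 were called higher and 4 lower with the antibody, and 3 higher and 7 lower with MCC950. With the antibody, Cd3e had a log2 fold change of 0.26 and Ccr7 of -0.50. Over all genes tested, 15.4% were called higher and 18.5% lower with the antibody, and 17.7% higher and 19.1% lower with MCC950. TPM scales each gene by its transcript length and each library to the same total. Most tested markers of other cells were called higher with both inhibitors, counts to be read beside those shares over all genes. Those of B cells, 12 of 12 called higher in each inhibitor comparison, summed to 103 to 114 TPM in anti-IL-1b, 115 to 129 TPM in MCC950 and 20.2 to 29.2 TPM in untreated libraries, and those of neutrophils, 6 of 10 tested, of which 6 rose with the antibody and 5 with MCC950, to 57.5 to 71.4 TPM in anti-IL-1b, 31.0 to 44.9 TPM in MCC950 and 0.680 to 1.54 TPM in untreated libraries. The largest part of the B cell sum was Cd74, with means of 57.6 TPM with the antibody, 66.6 TPM with MCC950 and 13.6 TPM untreated. Ebf1, though called higher in counts, averaged 0.35 TPM with the antibody, 0.32 TPM with MCC950 and 0.37 TPM untreated. S100a8, Ly6g, Mpo, Camp and Retnlg were at 0 in every untreated library, and Elane was at 0 in all 9. Ly6g and Mpo were near the floor in the inhibitor libraries too, at no more than 0.27 TPM for Ly6g and 0.09 TPM for Mpo. The neutrophil marker Cxcr2 was not called with MCC950, at a mean of 0.400 TPM beside 0.593 TPM untreated. Of markers of cytotoxic T and NK cells, 5 of 8 were tested and 3 rose and 1 fell with the antibody, while 3 rose and 0 fell with MCC950 (93.3 to 103 TPM in anti-IL-1b, 88.3 to 95.2 TPM in MCC950 and 54.7 to 59.3 TPM in untreated libraries). Monocyte, macrophage and dendritic cell markers, 5 of 11 tested with 3 higher in each comparison, summed to at most 21.4 TPM in anti-IL-1b, 18.8 TPM in MCC950 and 4.83 TPM in untreated libraries. Red cell and platelet markers, 5 of 9 tested with 4 higher in each, reached at most 21.2 TPM in anti-IL-1b, 37.4 TPM in MCC950 and 3.09 TPM in untreated libraries, with Pf4 and Ppbp at 0 in all 9. The 12 genes of a list of handling stress, immediate early and heat shock genes such as Fos, Jun and Hspa1a, were all 12 called lower with both inhibitors, at a summed 1990 to 2137 TPM in anti-IL-1b, 2083 to 2169 TPM in MCC950 and 10783 to 10963 TPM in untreated libraries. The part of other cells and of handling in the results below was not tested, and in bulk RNA fewer cells of a type and less RNA per cell cannot be told apart.

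All 10 genes passed the filter on low counts, and they spanned a wide range of levels. By mean TPM over the 9 libraries Pkm ranked 244, Aldoa 267 and Ldha 291 among the 13374 genes tested. Pdk1 ranked 749, Pgk1 1057, Pfkp 1752 and Hk1 2378, while Slc2a3 at 5473 and Slc2a1 at 5922 stood in the middle and Hk2 at 13227 near the bottom. Together the 10 genes summed to 1775 ± 56.8 TPM in anti-IL-1b, 1814 ± 11.3 TPM in MCC950 and 1612 ± 22.8 TPM in untreated libraries (SD, n = 3 each). In TPM most genes shifted up. On log2(TPM + 1) the median change of all genes tested against untreated was 0.14 with the antibody and 0.09 with MCC950.

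With the antibody, Slc2a1, Slc2a3 and Ldha fell and Pdk1 rose against untreated mice, and the other 6 genes did not pass the test. With MCC950, Slc2a1 and Slc2a3 fell, and Hk1, Aldoa, Pgk1, Pkm and Pdk1 rose. Compared directly, antibody libraries had less Aldoa, Pgk1, Pkm and Ldha and more Pdk1 than MCC950 libraries. Calls were made by edgeR's quasi-likelihood test at a Benjamini-Hochberg adjusted p under 0.05, adjusted across every gene tested. Against untreated, the antibody gave 1 of 10 genes higher and 3 of 10 lower, where 15.4% and 18.5% of all genes tested were called in those directions. MCC950 gave 5 of 10 higher and 2 of 10 lower, against 17.7% and 19.1% of all genes. Between the agents 1 of 10 was higher and 4 of 10 were lower in antibody libraries, against 6.13% and 7.11% of all genes. The median log2 fold change of the 10 genes was 0.01 for the antibody, 0.09 for MCC950 and -0.08 for the antibody against MCC950, beside medians over all genes of 0.00 for the antibody, 0.01 for MCC950 and 0.00 between the agents. The counts of small changes depend on the scaling and on single libraries. With library totals 6 were higher with the antibody and 7 with MCC950. Those higher with MCC950 numbered 2 without MCC950 replicate 1, 3 without MCC950 replicate 2 or untreated replicate 1 or 2, and 4 or 5 without any other library. Those higher with the antibody numbered 2 without untreated replicate 1, and those lower in antibody than in MCC950 libraries numbered 1 without anti-IL-1b replicate 3, and 2 without anti-IL-1b replicate 2 or MCC950 replicate 1 or 3. Both inhibitor comparisons use the same 3 untreated libraries, so they are not independent of each other. The scaling matters for small changes: with library totals in place of TMM factors the median of all genes moved up by 0.13 for the antibody and 0.11 for MCC950, and the calls over all genes were then 3929 higher and 1344 lower for the antibody, beside 2066 and 2479 with TMM, and 4009 higher and 1587 lower for MCC950, beside 2369 and 2552 with TMM.

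**Figure D1:**
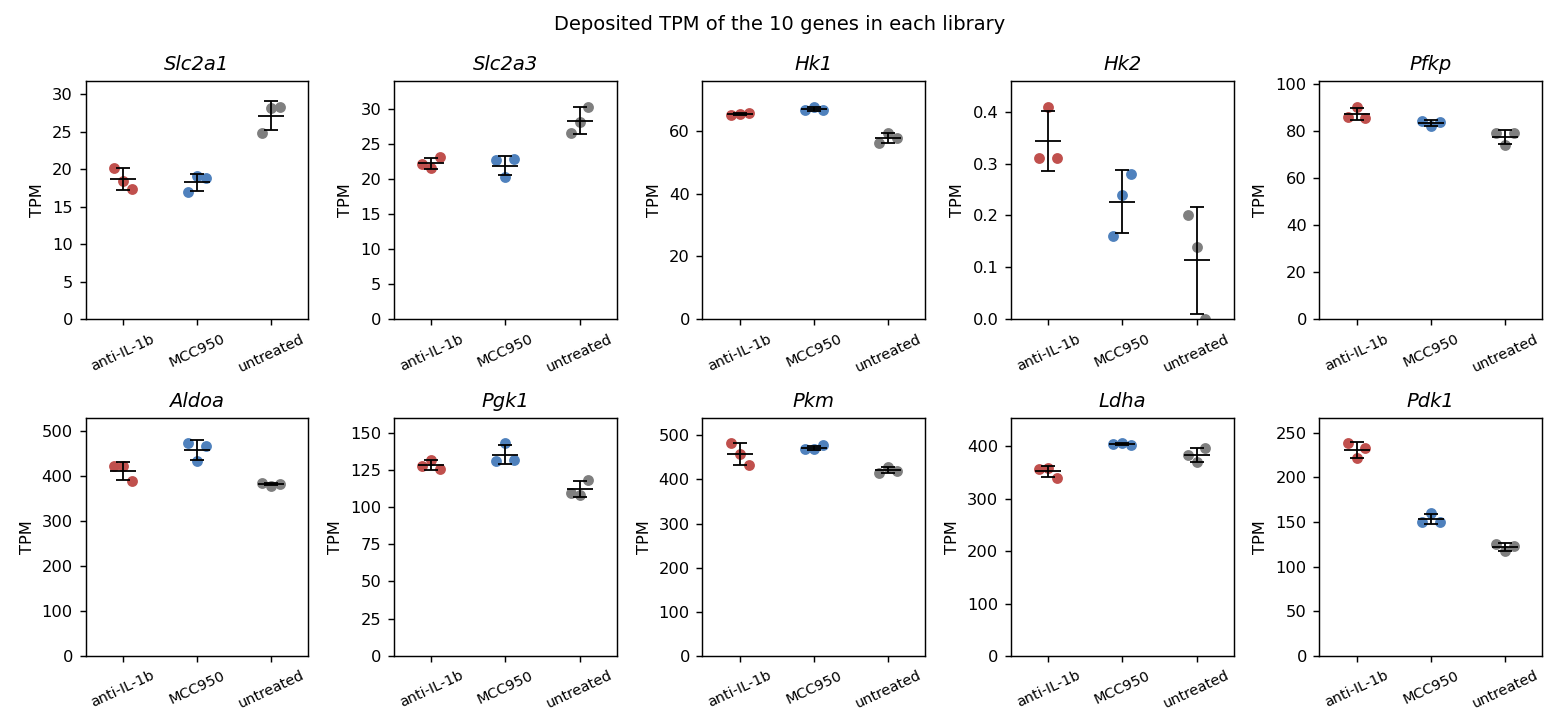
Deposited TPM of each gene by library, with anti-IL-1b in red, MCC950 in blue and untreated in grey; points are libraries, and bars give the mean and SD (n = 3 each). The y axes start at 0 and differ between genes. Slc2a1 and Slc2a3 sit lower in all 6 inhibitor libraries than in the 3 untreated ones, and Pdk1 sits at 221 to 238 TPM with the antibody, 150 to 160 TPM with MCC950 and 118 to 126 TPM untreated.

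Both glucose transporters were lower with either inhibitor, by about the same amount. Slc2a1, on chromosome 4 (mm10, 119108711 to 119137983, plus strand), had 20.2, 18.5 and 17.4 TPM in the anti-IL-1b libraries, 17.0, 19.1 and 18.8 TPM in the MCC950 libraries, and 24.9, 28.3 and 28.4 TPM in the untreated libraries. Every inhibitor library lay below every untreated one, and the inhibitor groups overlapped each other. The log2 fold change in counts was -0.65 ± 0.08 (SE) for the antibody (adjusted p = 4.33e-09) and -0.62 ± 0.07 for MCC950 (adjusted p = 8.58e-09). Antibody and MCC950 libraries did not differ by the test, at a log2 fold change of -0.03 (95% interval -0.19 to 0.13, adjusted p = 0.883).

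Slc2a3, on chromosome 6 (122727809 to 122801640, minus strand), encodes a transporter with a higher affinity for glucose than GLUT1. It had 22.3, 21.6 and 23.1 TPM with the antibody, 22.7, 20.4 and 22.9 TPM with MCC950, and 26.6, 28.2 and 30.4 TPM untreated. Again no inhibitor library reached the lowest untreated one. Its log2 fold change in counts was -0.60 ± 0.06 for the antibody (adjusted p = 8.34e-10) and -0.49 ± 0.06 for MCC950 (adjusted p = 4.79e-08), with no call between the agents (-0.11, interval -0.24 to 0.03, adjusted p = 0.341). In TPM the falls of Slc2a3 came out smaller, at -0.33 for the antibody and -0.36 for MCC950 on the log2(TPM + 1) scale, and both remained past the threshold. The estimated mean transcript length of Slc2a3 was 3492 ± 29.2 bases with the antibody, 3639 ± 128 bases with MCC950 and 3703 ± 113 bases untreated. Of the summed TPM of the 4 detected genes of this transporter family, Slc2a1 held 40.9% with the antibody, 40.9% with MCC950 and 45.5% untreated, and Slc2a3 held 48.9% with the antibody, 49.2% with MCC950 and 47.7% untreated, while Slc2a6 and Slc2a8 held the rest.

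Other carriers of sugars and of pyruvate and lactate were mostly too low to test, as 6 of the 13 listed passed the filter. Of these, 0 rose and 1 fell with the antibody, and 1 rose and 1 fell with MCC950, numbers too small to set against the shares over all genes. The gene that fell with both was Slc16a1, the lactate and pyruvate carrier MCT1, with 11.5, 9.58 and 11.8 TPM in anti-IL-1b, 9.37, 10.8 and 9.80 TPM in MCC950 and 19.8, 21.3 and 19.3 TPM in untreated libraries. Its log2 fold changes were -1.04 ± 0.08 with the antibody (adjusted p = 1.07e-13) and -1.11 ± 0.08 with MCC950 (adjusted p = 1.36e-14). Bsg, the chaperone that brings MCT1 to the membrane, rose with MCC950 by 0.17 ± 0.06 (adjusted p = 0.0271) and was not called with the antibody (0.08, adjusted p = 0.314). The MCC950 call of Bsg was lost in 5 of 22 alternative settings, among them without MCC950 replicate 1 or 3 or untreated replicate 1 or 2. An antibody call was gained on library totals (0.21) and on either TPM scale (0.22), so Bsg is not shown to differ between the agents.

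Hexokinase was almost entirely Hk1, the isozyme of resting cells. Hk1 (chromosome 10, 62268855 to 62379908, minus strand) had 65.1, 65.4 and 65.6 TPM in anti-IL-1b, 66.8, 67.7 and 66.6 TPM in MCC950 and 56.1, 59.2 and 57.6 TPM in untreated libraries, and held 98.1% with the antibody, 98.6% with MCC950 and 98.6% untreated of the TPM of Hk1, Hk2 and Hk3. In TPM both inhibitor groups lay above all untreated libraries, while in counts scaled by edgeR's TMM method the antibody libraries overlapped them. The log2 fold change in counts was 0.11 ± 0.04 for MCC950 (adjusted p = 0.0406) and 0.05 ± 0.04 for the antibody (adjusted p = 0.437). The MCC950 call was lost in 6 of 22 alternative settings, 3 of which left out 1 library (MCC950 replicate 1 or 2, or untreated replicate 1), with adjusted p up to 0.183. The antibody value gained the call on library totals (0.17) and on log2(TPM + 1) (0.18).

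Hk2, the isozyme that activated and dividing cells induce, was near the limit of detection. Its expected counts were 12, 19 and 11 with the antibody, 10, 9 and 16 with MCC950, and 13, 11 and 0 untreated. That is at most 0.41 TPM in any library, far below the TPM of Hk1. The groups overlapped, and no comparison passed the test (log2 fold change 0.99, interval -0.46 to 2.44, adjusted p = 0.308 for the antibody and 0.55, interval -0.92 to 2.02, adjusted p = 0.601 for MCC950). Without untreated replicate 3, the library with no read, the values were 0.40 for the antibody and -0.04 for MCC950, so a difference in Hk2 was not detectable at this depth.

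The middle of the pathway moved little. Pfkp, the platelet form of phosphofructokinase, which commits sugar to glycolysis, had 85.8, 90.4 and 85.6 TPM in anti-IL-1b, 84.2, 82.2 and 84.0 TPM in MCC950 and 79.2, 74.2 and 79.2 TPM in untreated libraries. Its log2 fold changes in counts, 0.08 ± 0.04 for the antibody (adjusted p = 0.0735) and 0.05 ± 0.04 for MCC950 (adjusted p = 0.355), did not pass, although the antibody libraries lay above the untreated ones without overlap. The antibody value gained the call in 7 of 22 alternative settings, among them library totals (0.21), log2(TPM + 1) (0.17) and the fit without untreated replicate 1 (0.11), and the MCC950 value in 1 (0.16 on library totals). Pfkp (chromosome 13, 6579768 to 6648777, minus strand) overlaps Pitrm1 on the other strand, which had 37.0 to 51.4 TPM, and the sources used here do not say whether reads were counted by strand. Of phosphofructokinase TPM, Pfkp made up 65.4% in anti-IL-1b, 62.1% in MCC950 and 65.9% in untreated libraries.

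Aldoa, the aldolase that splits fructose bisphosphate, had 424, 422 and 389 TPM in anti-IL-1b, 474, 434 and 468 TPM in MCC950 and 385, 379 and 384 TPM in untreated libraries (chromosome 7, 126795234 to 126800751, minus strand). TMM-scaled counts ordered the groups otherwise, at 328 ± 10.6 CPM with the antibody, 359 ± 15.3 CPM with MCC950 and 336 ± 7.60 CPM untreated. These CPM are counts scaled to a common library total, with each total adjusted by its TMM factor. Aldoa rose with MCC950 by 0.09 ± 0.03 (adjusted p = 0.0276) and was not called with the antibody (-0.04 ± 0.03, adjusted p = 0.462), whose sign turned to 0.09 when counts were scaled by library totals (adjusted p = 0.0317) and to 0.10 on the log2(TPM + 1) scale (adjusted p = 0.11). The MCC950 call was lost without MCC950 replicate 1 (adjusted p = 0.172) or untreated replicate 2 (adjusted p = 0.137).

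Pgk1, which makes the first ATP of glycolysis, had 128, 132 and 125 TPM with the antibody, 131, 143 and 132 TPM with MCC950, and 110, 108 and 118 TPM untreated (chromosome X, 106187100 to 106203699, plus strand). Every inhibitor library exceeded every untreated one in TPM. In counts it rose with MCC950 by 0.17 ± 0.04 (adjusted p = 0.00141), a call that held in all 22 alternative settings, and was not called with the antibody (0.04 ± 0.04, adjusted p = 0.476) except on library totals and TPM, where it reached 0.17 (adjusted p = 0.00177) and 0.19 (adjusted p = 0.0192).

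Pkm, the pyruvate kinase of most tissues, was the highest of the 10 genes, with 482, 459 and 433 TPM in anti-IL-1b, 468, 469 and 477 TPM in MCC950 and 415, 429 and 420 TPM in untreated libraries. In counts it rose with MCC950 by 0.08 ± 0.03 (adjusted p = 0.0356), a call lost when any one of the 6 libraries of that comparison was left out, with adjusted p between 0.0513 and 0.0975. With the antibody it was not called (-0.03 ± 0.03, adjusted p = 0.517), and here too library totals and TPM turned the sign, to 0.10 and 0.12. Library totals and log2(TPM + 1) called Pkm higher with the antibody (adjusted p = 0.00703 and 0.0478). The rises with MCC950 were all larger on library totals, at 0.21 for Aldoa, 0.29 for Pgk1, 0.19 for Pkm and 0.22 for Hk1, each 0.11 above its TMM value. Pkm (chromosome 9, 59656368 to 59679375, plus strand) overlaps the predicted gene Gm49759 on the same strand, at 16.8 to 27.9 TPM, so reads could be shared between them.

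Set against each other, the agents differed slightly in these enzymes. Antibody libraries were lower than MCC950 libraries in Aldoa (log2 fold change -0.13 ± 0.03, adjusted p = 0.00761), Pgk1 (-0.13 ± 0.04, adjusted p = 0.0423) and Pkm (-0.11 ± 0.03, adjusted p = 0.0125), and not past the threshold in Hk1 (-0.06, adjusted p = 0.393) or Pfkp (0.04, adjusted p = 0.57). The Pgk1 call was lost in 17 of 22 alternative settings, among them without any one library other than untreated replicate 2 or 3, the Pkm call in 6, among them without MCC950 replicate 3 or anti-IL-1b replicate 2 or 3, and the Aldoa call in 4, among them without MCC950 replicate 1 or anti-IL-1b replicate 3.

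**Figure D2:**
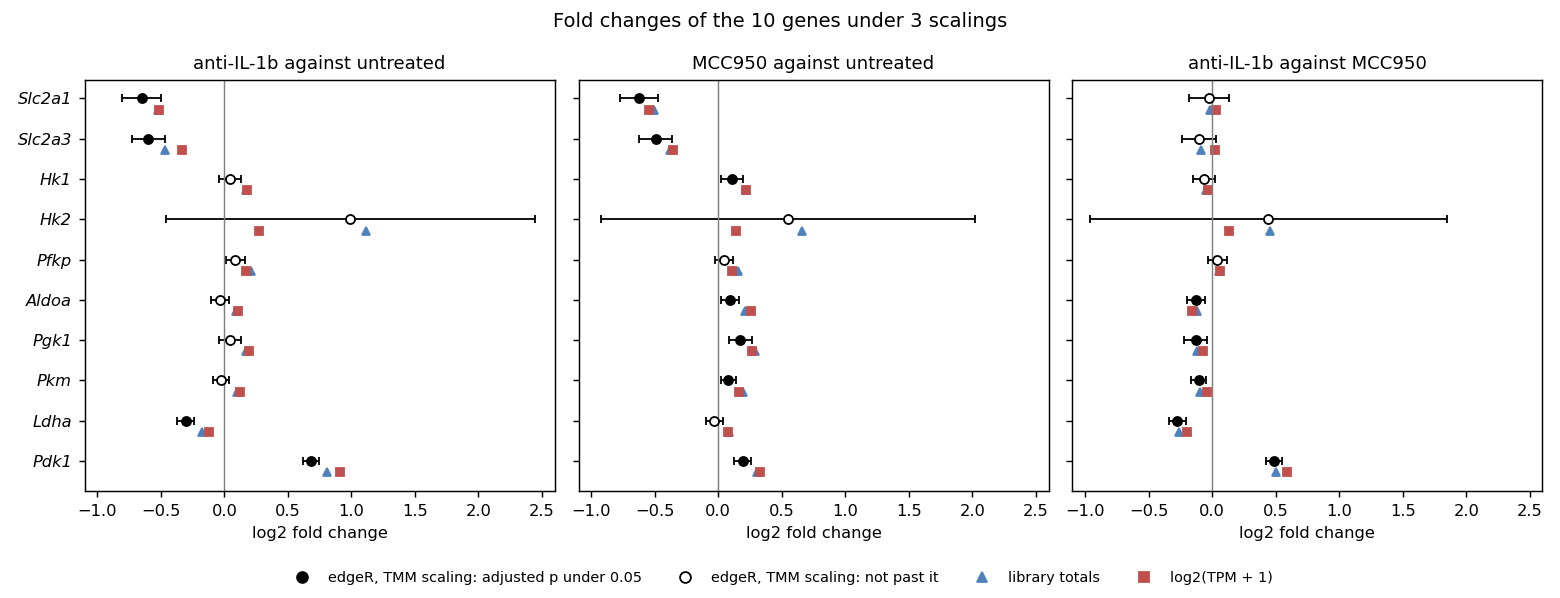
Log2 fold changes of the 10 genes in the 3 comparisons. Circles are edgeR values with TMM scaling and their 95% intervals, filled where the adjusted p was under 0.05; triangles use library totals and squares log2(TPM + 1). Slc2a1, Slc2a3, Ldha and Pdk1 stay on their side of 0 for the antibody under all 3 scalings, while Aldoa and Pkm change sides.

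At the end of the pathway the agents differed. Ldha, the lactate dehydrogenase subunit that favours lactate, had 357, 360 and 340 TPM in the anti-IL-1b libraries, 405, 406 and 403 TPM in the MCC950 libraries, and 383, 369 and 397 TPM in the untreated libraries (chromosome 7, 46841475 to 46855627, plus strand). The antibody libraries were the lowest 3 of the 9. In counts the log2 fold change of Ldha with the antibody was -0.31 ± 0.03 against untreated (adjusted p = 9.06e-10) and -0.28 ± 0.03 against MCC950 (adjusted p = 7.58e-08), and both calls held in all 22 alternative settings. The value against untreated was smaller on other scales, -0.18 on library totals and -0.12 on log2(TPM + 1). MCC950 was not called against untreated (-0.03, interval -0.10 to 0.04, adjusted p = 0.515). The sign of that value was positive, 0.08, on library totals (adjusted p = 0.0382) and on log2(TPM + 1) (adjusted p = 0.134). The estimated transcript length of Ldha was 1516 ± 5.36 bases with the antibody, 1532 ± 7.22 bases with MCC950 and 1543 ± 3.14 bases untreated. Ldhb, the other main subunit, had 36.2 ± 0.78 TPM with the antibody, 39.8 ± 3.05 TPM with MCC950 and 39.0 ± 3.88 TPM untreated and was not called in any comparison, and Ldha held 90.7% of lactate dehydrogenase TPM with the antibody, 91.0% with MCC950 and 90.8% untreated.

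Pdk1, the kinase that inactivates pyruvate dehydrogenase, had the largest change with the antibody among those of the 10 genes that were called. It had 238, 221 and 233 TPM in anti-IL-1b, 150, 160 and 150 TPM in MCC950 and 126, 118 and 124 TPM in untreated libraries (chromosome 2, 71873224 to 71903858, plus strand). The groups formed 3 separate steps with no overlap. In counts Pdk1 rose with the antibody by 0.68 ± 0.03 (adjusted p = 1.75e-20) and with MCC950 by 0.19 ± 0.03 (adjusted p = 6.26e-06), and antibody libraries exceeded MCC950 libraries by 0.49 ± 0.03 (adjusted p = 8.49e-15). These 3 calls held in all 22 alternative settings, and on library totals the rises against untreated were 0.81 with the antibody and 0.31 with MCC950. Of all genes tested, 15.1% changed more in size than Pdk1 with the antibody and 55.4% with MCC950, so the MCC950 change, though called, was smaller than that of most genes.

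Pdk1 was also the dominant member of its family in these cells, at 92.9% of the summed TPM of Pdk1, Pdk2, Pdk3 and Pdk4 with the antibody, 91.8% with MCC950 and 89.8% untreated. Pdk2 averaged 7.51 TPM in anti-IL-1b, 5.51 TPM in MCC950 and 6.15 TPM in untreated libraries, and Pdk3 10.2 TPM in anti-IL-1b, 8.29 TPM in MCC950 and 7.68 TPM in untreated libraries, and neither was called in any comparison. Pdk4, the fasting-induced kinase of liver and muscle, was listed at 0 in all 9 libraries.

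Ratios of TPM within each library put the genes on a common footing, since a factor common to a whole library cancels. Pdk1 to Pkm was 0.505 ± 0.029 in anti-IL-1b, 0.325 ± 0.014 in MCC950 and 0.290 ± 0.015 in untreated libraries. Ldha to Pkm was 0.769 ± 0.026 in anti-IL-1b, 0.858 ± 0.013 in MCC950 and 0.910 ± 0.044 in untreated libraries, so that the antibody libraries (0.740 to 0.785) lay below all others (0.843 to 0.946). Slc2a1 to Hk1 was 0.286 ± 0.023 with the antibody, 0.273 ± 0.016 with MCC950 and 0.471 ± 0.025 untreated, and Slc2a3 to Hk1 was 0.342 ± 0.012 with the antibody, 0.328 ± 0.024 with MCC950 and 0.493 ± 0.030 untreated. Pdk1 to Ldha gave the widest spread of groups, at 0.656 ± 0.036 with the antibody, 0.379 ± 0.013 with MCC950 and 0.319 ± 0.008 untreated (SD, n = 3 each). A ratio shows that its members changed unequally, not which of them changed, and no test was run on the ratios.

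**Figure D3:**
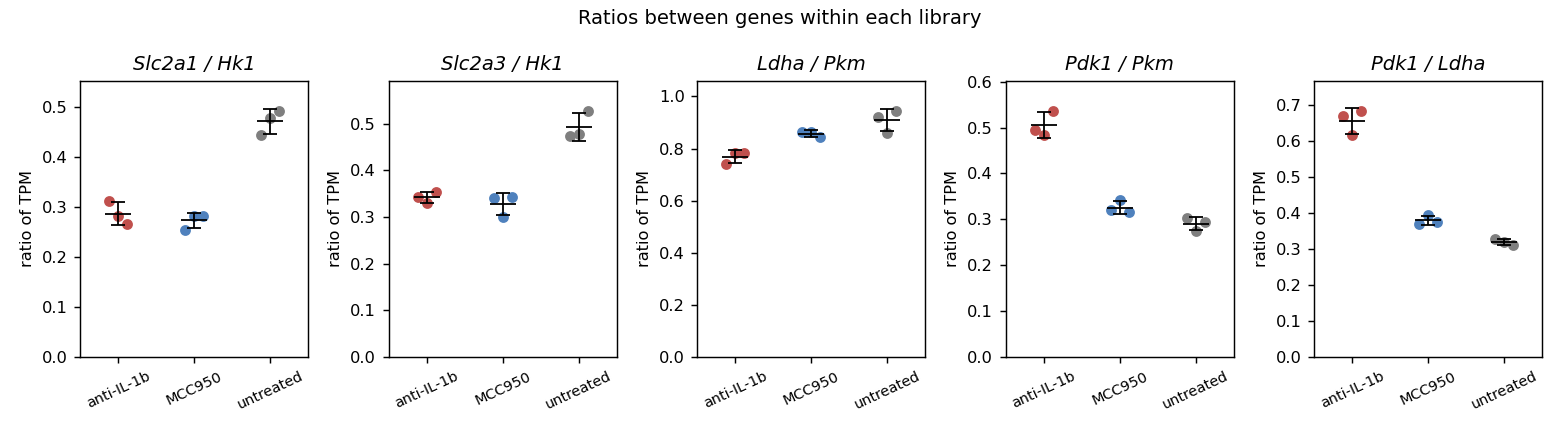
Ratios between the TPM of named genes within each library, with anti-IL-1b in red, MCC950 in blue and untreated in grey; points are libraries and bars the mean and SD (n = 3 each), on axes that start at 0. Slc2a1 / Hk1 and Slc2a3 / Hk1 separate both inhibitors from untreated, and Pdk1 / Ldha separates all 3 groups, at 0.616 to 0.684 with the antibody, 0.370 to 0.394 with MCC950 and 0.311 to 0.328 untreated.

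Of the remaining glycolytic enzymes, 16 of 23 could be tested, and 1 rose and 1 fell with the antibody, while 3 rose and 2 fell with MCC950. Over all genes tested, 15.4% rose and 18.5% fell with the antibody and 17.7% rose and 19.1% fell with MCC950, and the MCC950 counts are near those shares. On library totals 5 of the 16 rose and 1 fell with the antibody and 6 rose and 0 fell with MCC950. Of all 13374 genes tested, 3929 then rose and 1344 fell with the antibody. With MCC950, 4009 rose and 1587 fell. Pfkm, the muscle form of phosphofructokinase, rose with both, at 12.7 ± 0.95 TPM in anti-IL-1b, 12.5 ± 1.74 TPM in MCC950 and 8.22 ± 0.27 TPM in untreated libraries (log2 fold change 0.44 with the antibody, adjusted p = 0.0021, and 0.52 with MCC950, adjusted p = 0.00027). Pfkl, the liver form, rose with MCC950 by 0.20 (adjusted p = 0.0103), a call lost in 6 of 22 alternative settings, among them on log2(TPM + 1) and without MCC950 replicate 1 or untreated replicate 1 or 3. Gapdh, which oxidises the triose, fell with both, at -0.28 for the antibody (adjusted p = 4.92e-09) and -0.15 for MCC950 (adjusted p = 0.00031). On library totals Gapdh was at -0.15 for the antibody and -0.04 for MCC950, which was then not called. Eno1, the enolase, rose with MCC950 by 0.20 (adjusted p = 8.15e-07) but stood at 0.00 with the antibody (adjusted p = 0.97). That value became a called rise on library totals (0.13) and on log2(TPM + 1) (0.22). Antibody libraries were lower than MCC950 libraries in Gapdh (-0.13, adjusted p = 0.00469) and Eno1 (-0.20, adjusted p = 5.66e-06). Neither was called on log2(TPM + 1) (-0.06 for Gapdh and -0.10 for Eno1). Both genes have near-identical copies that make their counts uncertain. Of the 10 genes, Aldoa, Pgk1 and Ldha also have processed copies in the mouse genome, with which reads could be shared. The processed pseudogenes found by symbol were at 0 expected counts in all 9 libraries for Aldoa and Pgk1. For Ldha they reached at most 12 expected counts in any library (Ldha-ps2). The other gene called lower with MCC950, named after its value was seen, was Pgam2, the muscle mutase, at 1.19 ± 0.71 TPM in MCC950 and 3.12 ± 0.80 TPM in untreated libraries, a call lost in 12 of 22 alternative settings, 6 of which left out 1 library (anti-IL-1b replicate 1 or 3, MCC950 replicate 1 or 2, or untreated replicate 1 or 2). The median log2 fold change of the 16 was -0.03 for the antibody and 0.02 for MCC950.

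Fructose 2,6-bisphosphate, the activator of phosphofructokinase, is set by 5 listed genes. Pfkfb2, one of the kinases that make it, rose by 0.28 with the antibody (adjusted p = 0.0429) and 0.42 with MCC950 (adjusted p = 0.00182). Its antibody call was lost in 9 of 22 alternative settings, among them without any one antibody library, untreated replicate 1 or 3, or MCC950 replicate 2, with the value at 0.17 without untreated replicate 3. Tigar, a phosphatase that removes it, fell, at -0.39 with the antibody (adjusted p = 0.00315) and -0.30 with MCC950 (adjusted p = 0.0216). The Tigar call was lost in 3 of 22 alternative settings for the antibody, with -0.17 on log2(TPM + 1). For MCC950 it was lost in 7, among them library totals (-0.18) and the fits without MCC950 replicate 1 or 2 or untreated replicate 1. Pfkfb3, another kinase, fell with the antibody (-0.22, adjusted p = 0.00654). That call was lost in 4 of 22 alternative settings (-0.09 on library totals and -0.04 on log2(TPM + 1)). Pfkfb3 was not called with MCC950 (-0.08, adjusted p = 0.375), a difference that was not past the threshold between the agents (-0.14, adjusted p = 0.148). In the pentose phosphate branch, 2 of 7 genes rose and 1 fell with the antibody and 2 rose and 0 fell with MCC950, beside the shares over all genes given above. Taldo1, transaldolase, rose by 0.15 with the antibody (adjusted p = 0.024) and 0.32 with MCC950 (adjusted p = 3.42e-06), and the antibody value was the lower (-0.17 against MCC950, adjusted p = 0.0221). The antibody rise of Taldo1 lost its call in 4 of 22 alternative settings, among them without anti-IL-1b replicate 1 or 2 or untreated replicate 2, and was larger on library totals (0.28). The difference between the agents lost its call in 6, among them on log2(TPM + 1) and without anti-IL-1b replicate 3 or MCC950 replicate 1 or 3. Pgd, which makes NADPH, rose by 0.22 with the antibody (0.35 on library totals) and 0.24 with MCC950. Rpia, an isomerase of the branch, fell with the antibody (-0.32, adjusted p = 0.00204, but not called at -0.19 on library totals) and was not called with MCC950 (-0.09, adjusted p = 0.393).

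Around pyruvate dehydrogenase, the complex that Pdk1 acts on, 13 of 15 listed genes were tested, and 1 rose and 5 fell with the antibody, while 2 rose and 2 fell with MCC950. Of all genes tested, 15.4% rose and 18.5% fell with the antibody and 17.7% rose and 19.1% fell with MCC950, and the MCC950 counts are near those shares. The falls with the antibody numbered 1 on library totals and 0 on log2(TPM + 1), where 2 rose on each. Of all 13374 genes tested, 3929 rose and 1344 fell with the antibody on library totals. On log2(TPM + 1), 2635 rose and 862 fell. Both phosphatases that undo the work of the kinases were lower with the antibody, Pdp1 at -0.35 ± 0.13 (adjusted p = 0.0347) and Pdp2 at -0.30 ± 0.10 (adjusted p = 0.0114), while their regulatory subunit Pdpr rose by 0.35 ± 0.07 (adjusted p = 0.000194). With MCC950, Pdp1 fell by 0.47 ± 0.13 (adjusted p = 0.00429), Pdp2 was not called (-0.15, adjusted p = 0.234) and Pdpr rose by 0.19 ± 0.07 (adjusted p = 0.04). The antibody call of Pdp1 was lost in 11 of 22 alternative settings, among them without untreated replicate 1 (-0.23) or any one antibody library. The antibody call of Pdp2 was lost in 5, among them without untreated replicate 2. With MCC950, the call of Pdp1 was lost in 5 settings, among them without MCC950 replicate 1 or untreated replicate 1. That of Pdpr was lost in 6, among them without any one MCC950 library or untreated replicate 2 (0.13) or 3. The rise of Pdpr with the antibody held in all 22 settings. Dld, the dihydrolipoyl dehydrogenase of the complex, fell, at -0.23 with the antibody (adjusted p = 0.00311) and -0.26 with MCC950 (adjusted p = 0.000871). It was not called on library totals (-0.11 with the antibody and -0.15 with MCC950) or on log2(TPM + 1). The other calls, named after their values were seen, were lower Pdha1, the subunit that the kinases phosphorylate (-0.13), and lower Pcx, pyruvate carboxylase (-0.82), with the antibody, and higher Pdhx, a structural subunit (0.38), with MCC950. The value of Pdha1 turned to 0.06 on log2(TPM + 1) and lost its call without anti-IL-1b replicate 1 (-0.07) or untreated replicate 1. The call of Pcx was lost on log2(TPM + 1) (-0.39) and without untreated replicate 1, and that of Pdhx without MCC950 replicate 2 or untreated replicate 2 or 3. Pdk1 to Pdha1 in TPM was 2.14 ± 0.31 in anti-IL-1b, 1.40 ± 0.08 in MCC950 and 1.18 ± 0.08 in untreated libraries.

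**Figure D4:**
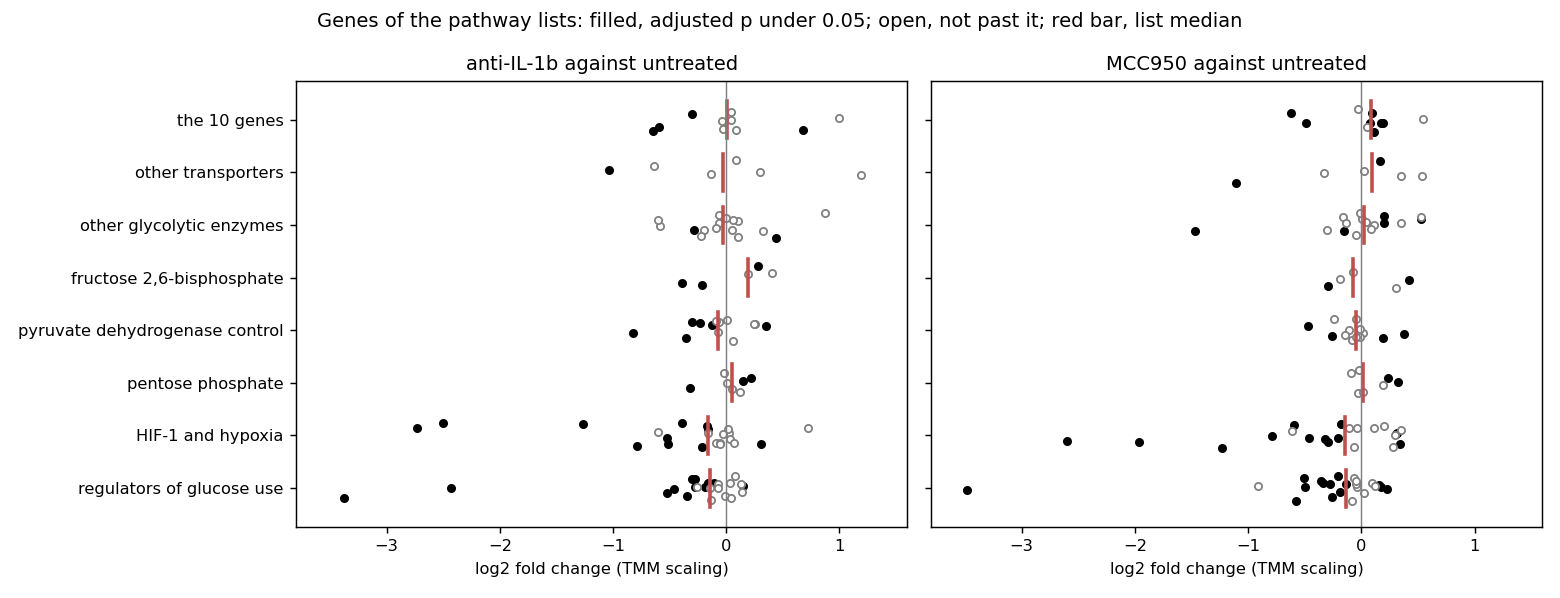
Log2 fold changes (x axis, counts with TMM scaling) of the 10 genes and of the tested genes of each related list, for either inhibitor against untreated. Filled points passed an adjusted p of 0.05, open points did not, and red bars are list medians; most points lie within 1 of 0, and the largest falls are in the HIF-1 and regulator lists.

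With TMM scaling, more of the genes known to control the pathway fell than rose. Of 22 tested genes of the HIF-1 pathway and hypoxia targets outside glycolysis, 1 rose and 10 fell with the antibody and 3 rose and 10 fell with MCC950, with list medians of -0.16 for the antibody and -0.14 for MCC950. The shares of all genes that rose and fell were 15.4% and 18.5% with the antibody and 17.7% and 19.1% with MCC950. Hif1a, the oxygen-regulated transcription factor, had 45.5, 34.5 and 36.9 TPM in anti-IL-1b, 28.2, 31.3 and 36.7 TPM in MCC950 and 57.2, 49.7 and 47.1 TPM in untreated libraries, with log2 fold changes of -0.52 ± 0.05 for the antibody (adjusted p = 3.74e-11) and -0.59 ± 0.05 for MCC950 (adjusted p = 8.87e-13). Bhlhe40, a transcriptional repressor that hypoxia and activation induce, fell, at -2.73 with the antibody and -2.60 with MCC950, a gene of at most 4.39 TPM in any library that was at -1.37 with the antibody and -1.25 with MCC950 on log2(TPM + 1). Kdm3a, a histone demethylase, fell, at -0.22 with the antibody and -0.33 with MCC950, and on log2(TPM + 1) it was called with neither, at -0.0011 with the antibody and -0.19 with MCC950. Ddit4, an mTORC1 inhibitor, fell with the antibody (-0.51 ± 0.05, adjusted p = 9.22e-12) and was not called with MCC950 (-0.04, adjusted p = 0.587), and the direct comparison of the agents gave -0.48 (adjusted p = 5.48e-10).

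Among 23 tested regulators of glucose use, 1 rose and 11 fell with the antibody and 3 rose and 11 fell with MCC950, with list medians of -0.14 for each, beside the same shares over all genes. Irf4, which drives glycolytic genes in activated T cells, had 2.17, 2.24 and 1.61 TPM in anti-IL-1b, 1.89, 1.69 and 1.77 TPM in MCC950 and 17.5, 19.5 and 18.9 TPM in untreated libraries, at log2 fold changes of -3.38 ± 0.12 for the antibody and -3.48 ± 0.11 for MCC950. Txnip, which restrains glucose uptake by removing GLUT1 from the membrane, fell as well, at -0.53 ± 0.03 with the antibody and -0.50 ± 0.03 with MCC950. On log2(TPM + 1) Txnip was at -0.23 with the antibody and -0.21 with MCC950, both still called. The forkhead factor Foxo3 fell, at -0.35 with the antibody and -0.36 with MCC950, with the antibody call lost on log2(TPM + 1) (-0.24). Foxo1 fell too, at -0.11 with the antibody, which turned to 0.05 on log2(TPM + 1), and -0.19 with MCC950, which was not called there (-0.10). The counts in both lists depend on the scaling. On library totals 3 HIF-1 genes rose and 7 fell with the antibody and 5 rose and 8 fell with MCC950. In that setting 4 regulators rose and 6 fell with the antibody and 5 rose and 9 fell with MCC950. Over all genes, 3929 then rose and 1344 fell with the antibody and 4009 rose and 1587 fell with MCC950. On log2(TPM + 1) 2 HIF-1 genes rose and 6 fell with the antibody and 2 rose and 4 fell with MCC950. On the same scale 1 regulator rose and 2 fell with the antibody and 3 rose and 4 fell with MCC950. Over all genes, 2635 rose and 862 fell there with the antibody and 2176 rose and 1102 fell with MCC950. The median of each list moved to between -0.04 and -0.02 on library totals. That of all genes was then 0.13 with the antibody and 0.12 with MCC950. On log2(TPM + 1) the HIF-1 median was 0.00 with the antibody and -0.08 with MCC950, and that of the regulators was 0.01 with the antibody and -0.08 with MCC950. All genes had a median of 0.14 with the antibody and 0.09 with MCC950 on that scale. Irf4 and Bhlhe40 are induced when T cells are activated, and the 12 handling stress genes fell in the same comparisons, whose part in these values was not tested.

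Several of the 10 genes are textbook targets of HIF-1, which binds the letters ACGTG and, in another form of the site, GCGTG (on the other strand these read CACGT and, for the second form, CACGC). The promoters of 4 of them are shown because they carry that motif beside calls in both directions, Slc2a1 lower with both inhibitors, Ldha lower with the antibody, Pgk1 higher with MCC950 and Pdk1 higher with both. Each runs 250 bases before to 50 after a RefSeq start on GRCm38.p6, 5′ to 3′ on the gene's strand, with capitals marking either motif on either strand.
Slc2a1 promoter, chr4:119108495-119108794, plus strand: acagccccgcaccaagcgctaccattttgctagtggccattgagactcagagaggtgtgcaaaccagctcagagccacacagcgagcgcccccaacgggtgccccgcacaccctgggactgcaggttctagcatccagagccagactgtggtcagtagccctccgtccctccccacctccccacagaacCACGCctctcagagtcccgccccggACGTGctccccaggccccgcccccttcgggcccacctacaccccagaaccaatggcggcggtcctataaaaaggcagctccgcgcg
Ldha promoter, chr7:46845554-46845853, plus strand: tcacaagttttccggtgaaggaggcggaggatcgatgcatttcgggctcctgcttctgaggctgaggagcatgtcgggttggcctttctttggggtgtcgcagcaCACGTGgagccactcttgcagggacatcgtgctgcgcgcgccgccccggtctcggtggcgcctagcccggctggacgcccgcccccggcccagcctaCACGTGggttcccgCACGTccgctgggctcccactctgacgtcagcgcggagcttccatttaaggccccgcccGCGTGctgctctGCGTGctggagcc
Pgk1 promoter, chrX:106186850-106187149, plus strand: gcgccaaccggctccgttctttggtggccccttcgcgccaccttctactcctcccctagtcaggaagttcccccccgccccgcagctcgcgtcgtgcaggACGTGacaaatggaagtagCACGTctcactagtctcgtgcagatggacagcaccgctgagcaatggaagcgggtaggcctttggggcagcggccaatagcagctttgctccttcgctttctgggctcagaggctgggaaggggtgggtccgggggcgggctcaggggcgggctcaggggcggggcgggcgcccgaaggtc
Pdk1 promoter, chr2:71872974-71873273, plus strand: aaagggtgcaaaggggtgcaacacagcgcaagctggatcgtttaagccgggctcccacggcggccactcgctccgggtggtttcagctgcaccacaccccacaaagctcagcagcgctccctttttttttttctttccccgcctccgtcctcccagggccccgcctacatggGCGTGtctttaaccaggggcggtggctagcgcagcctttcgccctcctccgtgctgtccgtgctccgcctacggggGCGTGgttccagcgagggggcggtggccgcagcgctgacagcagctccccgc

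In Slc2a1 the matches begin 61 and 36 bases before the start, and in Pgk1 150 and 131 bases before it. In Ldha they begin 145, 144, 48, 47 and 34 bases before the start and at bases 26 and 38 after it, where CACGT and ACGTG overlap in the palindrome CACGTG at 2 places. In Pdk1 GCGTG begins 78 and 2 bases before the start. RefSeq entries were found for 9 of the 10 genes, 15 promoters in all, and Slc2a3 was not among them. Each of the 9 genes had at least 1 promoter with ACGTG or GCGTG. The share of all genes with such a promoter was not computed, and a gene with several promoters has more chances of a match. Counted by promoter, 11 of the 15 held either motif, beside 43.8% of 32851 promoters of the same length, not matched for base composition. Of the 32851, 19.6% held ACGTG, 32.4% held GCGTG and 7.15% held CACGTG, which contains ACGTG. The Aldoa promoters starting at 126799129 and 126799205 overlap and hold the same CACGT, so that site was counted in each. The other Pdk1 promoter, starting at 71874654, held neither motif. A match is a description of the letters in this window and says nothing of binding.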

How the data were processed

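The authors' expected counts were estimated per gene by RSEM from STAR alignments to mm10, per the submitters' processing notes, with versions and the use of strand not given in the sources used here. An expected count shares a read among the genes it matches. The deposited TPM values and transcript lengths come from the same tables, per the file headers. Directional libraries of poly(A) RNA were made, per the labels' protocols. The FPKM values were not used.

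Of 55487 gene IDs, 55141 had a symbol in the GENCODE M21 annotation of GRCm38. Counts were rounded, filtered with filterByExpr (13374 genes), scaled by TMM and tested with edgeR 4.0.16 (robust quasi-likelihood fit of 3 group means over 9 libraries, R 4.3.3). Two-sided p-values had Benjamini-Hochberg adjustment across all genes tested, with a threshold of 0.05, and intervals are at 95%. The common biological coefficient of variation was 0.0707. The test was also run on simulated counts with the same biological coefficient of variation for every gene. That run does not cover genes of unlike spread, as in these data. Alternatives used other scalings and filters, transcript lengths as offsets, DESeq2 1.42.0, limma 3.58.1 on counts and on log2(TPM + 1) or log2(TPM + 0.1), and left out each library. No library was a copy of another. All genes and lists were chosen with earlier results of these data known. From each related list the up to 4 genes with the smallest p among those called against untreated were named.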

Additional observations from a re-analysis of the deposited data

How the results depend on the processing

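Of the calls on the 10 genes, those of Slc2a1, Slc2a3 and Pdk1 against untreated for both inhibitors, of Ldha with the antibody against untreated and against MCC950, of Pgk1 with MCC950 and of Pdk1 between the agents kept their direction and their side of the threshold in all 22 alternatives. Over the settings and comparisons of the 10 genes, 583 values kept both, 42 lost the call, 14 gained it and 18 changed sign. The number of the 10 genes higher with the antibody than untreated was 1, and 2 with RLE scaling, upper-quartile scaling or DESeq2, 6 with library totals, 5 with log2(TPM + 1) or log2(TPM + 0.1), and 1 to 2 when 1 library was left out. The number higher with MCC950 was 5, and 7 with library totals, 4 with DESeq2 or limma-voom, 3 with effective-length offsets, and 2 to 5 when 1 library was left out. The number lower with the antibody than with MCC950 was 4, and 1 on either TPM scale, 2 with effective-length offsets, and 1 to 4 when 1 library was left out. Over all genes, calls higher and lower were 2687 and 1941 for the antibody and 2859 and 2211 for MCC950 with upper-quartile scaling, and on log2(TPM + 1) 2635 and 862 for the antibody and 2176 and 1102 for MCC950, and on log2(TPM + 0.1) 2669 and 848 for the antibody and 2224 and 1090 for MCC950. Effective-length offsets lowered the calls over all genes to 1263 and 1539 for the antibody, 1422 and 1730 for MCC950 and 294 and 367 between the agents, and between the agents log2(TPM + 1) gave 371 and 205 and log2(TPM + 0.1) 362 and 204, beside 820 and 951 with TMM. Changes of sign touched small values. Upper-quartile scaling put Aldoa at 0.014 and Pkm at 0.022 (antibody against untreated), Ldha at 0.0067 and Ddit4 at 0.0012 (MCC950 against untreated). Library totals put Aldoa at 0.091, Pkm at 0.099 and Foxo1 at 0.015 (antibody against untreated), Ldha at 0.083, Ddit4 at 0.078, Pfkfb3 at 0.038 and Rpia at 0.020 (MCC950 against untreated). The log2(TPM + 1) scale put Aldoa at 0.10, Pkm at 0.12, Foxo1 at 0.050 and Pdha1 at 0.061 (antibody against untreated), Ldha at 0.079, Ddit4 at 0.060 and Pfkfb3 at 0.090 (MCC950 against untreated), Slc2a1 at 0.030 and Slc2a3 at 0.022 (antibody against MCC950). The log2(TPM + 0.1) scale put Aldoa at 0.10, Pkm at 0.12, Foxo1 at 0.051 and Pdha1 at 0.061 (antibody against untreated), Ldha at 0.079, Ddit4 at 0.061 and Pfkfb3 at 0.094 (MCC950 against untreated), Slc2a1 at 0.031 and Slc2a3 at 0.023 (antibody against MCC950). Effective-length offsets put Pfkl at -0.081 (antibody against untreated) and Pfkfb3 at 0.0081 (MCC950 against untreated). When 1 library was left out, Pkm ran -0.067 to 0.0067 and Eno1 -0.018 to 0.028 (antibody against untreated), and Hk2 -0.042 to 1.21 (MCC950 against untreated). The cause was not tested. Replicate numbers were not taken as pairs, since the labels tie them to nothing. Of 9 same-number correlations of deviations, 4 exceeded 0.1, a cut that has no basis in the design and cannot decide pairing. All 9 were positive (0.028 to 0.199), those of replicate 2 were 0.127 to 0.199, and 4 of 9 libraries correlated best with their own number in both other groups, a hint from the data and not from the design that some numbers may share something. With the replicate number as a block the 10 genes gave 1 higher and 3 lower for the antibody, 5 and 2 for MCC950 and 1 and 3 between the agents. The replicate block left the call of Pgk1 between the agents at an adjusted p of 0.0525. Of the 10 genes, Hk2 was the one limited by depth, and it had no value under a filter of 1 CPM in 3 libraries.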
